A study of Mus musculus with 12 samples.

Results

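The 10 amino acid transporter genes described here were listed by name, were all present among the 54658 genes of each library, and were all among the 21456 genes that passed the filter on low counts. They are Slc3a2, Slc7a5, Slc7a11, Slc7a1, Slc7a2, Slc1a4, Slc1a5, Slc38a1, Slc38a2 and Slc6a14. RNA sequencing covered 9 mammary tumours with the genotype Trp53R245W/+, in which 1 allele of the tumour suppressor gene carries the missense change R245W, and 3 preparations of epithelium enriched from wild-type mammary glands. The animals were female, and the strain is labelled C57BL/6J X BALB/cJ F1 hybrid. The series title calls the mutation somatic, the labels name neither the promoter nor the cells in which it was switched on, and no ages or treatments are given. The label numbers serve as names: tumours 1, 4, 5, 14, 17, 20, 21, 24 and 27, and epithelium 1, 2 and 3. The labels do not say whether each library came from its own animal, so p-values measure the spread between these libraries. Genotype and title prefix (R597 for tumours, R688 for epithelium) follow the tissue, so tumour state, the p53 change and library batch cannot be told apart.

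Amino acids cross the plasma membrane through carrier proteins of several SLC families. Slc3a2 encodes CD98, a single-pass glycoprotein that carries transporting light chains to the cell surface. Its partners include LAT1 (Slc7a5), which exchanges intracellular glutamine for leucine and other large neutral amino acids, and also xCT (Slc7a11), which exports glutamate and imports cystine for glutathione synthesis. The carriers CAT1 (Slc7a1) and CAT2 (Slc7a2) take up arginine and lysine. ASCT1 (Slc1a4) and ASCT2 (Slc1a5) exchange small neutral amino acids, with glutamine a substrate of ASCT2. SNAT1 (Slc38a1) and SNAT2 (Slc38a2) bring in glutamine and alanine with sodium, and Slc6a14 encodes a concentrating carrier of both neutral and cationic amino acids. Mammary epithelium draws heavily on these carriers for milk protein, the mTOR complex senses leucine and arginine, and ATF4, the transcription factor of the amino acid stress response, is known to induce several of the genes.

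RefSeq promoters, on GRCm38.p6, were held for 6 of the 10 members. The 250 bases before the RefSeq start are shown 5′ to 3′ for the cystine carrier, for its obligate heavy chain and for the member that rose. For Slc3a2 this start lies inside the gene as GENCODE annotates it (8706882 to 8723369, minus strand), so the stretch is not the one before the outermost annotated start. Capitals mark TGATGNAA, the C/EBP-ATF element that ATF4 can bind, on either strand.
Slc7a11, chr3:50443614-50443863, minus strand: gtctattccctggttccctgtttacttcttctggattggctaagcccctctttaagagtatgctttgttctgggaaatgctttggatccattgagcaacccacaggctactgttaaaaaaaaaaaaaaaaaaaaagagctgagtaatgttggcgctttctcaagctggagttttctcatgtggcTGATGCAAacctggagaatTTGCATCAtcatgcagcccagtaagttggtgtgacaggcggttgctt
Slc3a2, chr19:8713898-8714147, minus strand: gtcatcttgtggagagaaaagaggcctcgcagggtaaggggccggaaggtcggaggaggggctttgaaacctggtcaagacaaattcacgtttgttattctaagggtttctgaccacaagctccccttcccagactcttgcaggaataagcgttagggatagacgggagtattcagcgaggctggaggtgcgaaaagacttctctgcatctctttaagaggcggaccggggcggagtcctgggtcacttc
Slc6a14, chrX:21714650-21714899, plus strand: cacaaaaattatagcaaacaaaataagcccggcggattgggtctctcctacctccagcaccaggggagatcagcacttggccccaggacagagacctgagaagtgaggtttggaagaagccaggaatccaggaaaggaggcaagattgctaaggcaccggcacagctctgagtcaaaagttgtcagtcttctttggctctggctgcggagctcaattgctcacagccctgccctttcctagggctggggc
The Slc7a11 promoter holds the element in both orientations, starting 66 and 47 bases before the RefSeq start. The Slc1a4 promoter holds 1 match on the minus strand, TTGCATCA, that begins 4 bases before its start. Of 32851 promoter windows of 300 bases (250 before to 50 after the start), 4.0% held the element. The antioxidant element TGACNNNGC, which NRF2 can bind, was in 12.4% of windows and matched in those of Slc7a1 and Slc38a2. The E-box CACGTG, a MYC site present in 7.2% of windows, matched in none of the 7 windows of the 6 members. A match is letters only, and these data do not measure binding.

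Library totals ran from 19695318 to 33600076 gene counts in tumours and from 24247566 to 25543872 in epithelium, so a count of 3 was 0.0893 to 0.152 counts per 1000000 (CPM). In tumour 4, which differed most from the rest, 51.97% of alignments were not unique and Rn7sk took 22.58% of gene counts. The share of alignments outside genes was 8.08% to 32.25% in tumours and 39.9% to 41.51% in epithelium. Markers of the labelled tissue were present. Counts of markers called are to be read against all genes tested, of which 8.89% were called higher and 11.4% lower in tumours. Of 7 general epithelial genes 3 were called higher in tumours, and their summed CPM was 1180 to 6650 in tumours and 1500 to 2210 in epithelium, with the keratin gene Krt18 at 992 ± 593 CPM in the tumours and 615 ± 132 CPM in epithelium. Lymphocyte genes were far lower in tumours. All 11 T and NK cell genes and all 7 B cell genes were called lower, although no marker was at 0 in all libraries of either group. The T and NK genes summed to 4.32 to 42.3 CPM in the tumours and 566 to 653 CPM in epithelium (Cd4, 5.17 CPM in the tumours and 90.1 CPM in epithelium), and the B cell genes to 4.42 to 77 CPM in the tumours and 737 to 1040 CPM in epithelium (Cr2, 1.95 CPM in the tumours and 204 CPM in epithelium). Of 7 endothelial genes 3 were called lower, and their sum was 179 to 726 CPM in the tumours and 849 to 1080 CPM in epithelium (Pecam1, 88 CPM in the tumours and 378 CPM in epithelium). Of 6 adipocyte genes 1 was called lower, and their sum was 12.5 to 175 CPM in the tumours and 329 to 515 CPM in epithelium (Fabp4, 32.5 CPM in the tumours and 418 CPM in epithelium). Of 9 macrophage genes 3 were called higher and 1 lower, and their sum was 463 to 2410 CPM in the tumours and 572 to 624 CPM in epithelium (C1qa, 372 CPM in the tumours and 75.1 CPM in epithelium). The other sums overlapped between the groups. They were 237 to 6090 CPM in the tumours and 1750 to 2790 CPM in epithelium for 8 luminal genes, 2 of them called lower (Csn3, 1090 ± 1670 CPM in the tumours and 122 CPM in epithelium), and 185 to 4290 CPM in the tumours and 1300 to 1840 CPM in epithelium for 8 basal genes (Acta2, 304 CPM in the tumours and 497 CPM in epithelium). The median log2 fold change of the luminal list was -1.54, opposite in direction to the mean of Csn3. They were 1350 to 31800 CPM in the tumours and 3810 to 5810 CPM in epithelium for 8 fibroblast genes (Col3a1, 3070 ± 5520 CPM in the tumours and 2180 CPM in epithelium), and 14.7 to 286 CPM in the tumours and 15.9 to 34.6 CPM in epithelium for 6 neutrophil genes (S100a8, 24.6 CPM in the tumours and 2.46 CPM in epithelium). The fibroblast list had a median log2 fold change of -0.51, opposite in direction to the mean of Col3a1. In bulk RNA, fewer cells of a type and less RNA per cell cannot be told apart, and the part of these cells in the values below was not tested.

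Between tumours and epithelium, the transporters changed in both directions. Slc7a2 and Slc1a5 fell and Slc6a14 rose, while the other 7 members did not pass the test. Of all 21456 genes tested, 20.3% were called in either direction, 8.89% higher and 11.4% lower in tumours, at a Benjamini-Hochberg adjusted p under 0.05 in edgeR's quasi-likelihood test, and the 3 of 10 called here are to be read against that share. The members' median log2 fold change was 0.08, against 0.17 for all genes. Values below are CPM scaled by the trimmed mean of M values, given as mean ± SD over 9 tumours and 3 epithelium libraries, with log2 fold changes of tumour over epithelium and their standard error (SE).

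**Figure D1:**
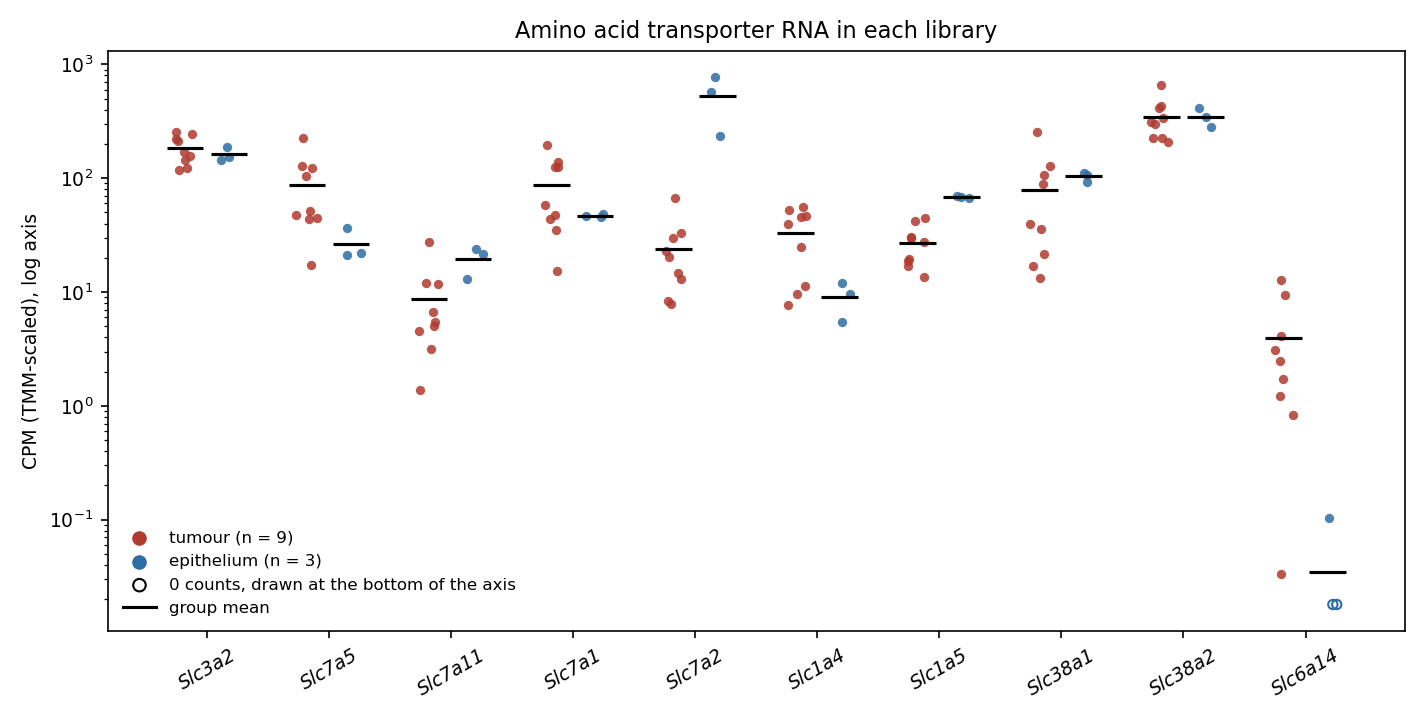
CPM of the 10 transporter genes on a log axis, with 1 point per library, tumours (red) left of epithelium (blue) for each gene, and black bars for group means. All 9 tumours lie below all 3 epithelium libraries for Slc7a2 and Slc1a5, and 8 of 9 tumours lie above them for Slc6a14.

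The cationic carriers parted. Slc7a2, which encodes CAT2, an arginine carrier best known from liver, muscle and activated macrophages, lies on chromosome 8 (40862396 to 40922308, GRCm38). Its RNA was 7.84 CPM in the lowest tumour, 20.2 CPM at the median and 66.4 CPM in the highest, against 773, 235 and 576 CPM in epithelium 1, 2 and 3. Every tumour was below every epithelium library, a pattern shown by 14.1% of all genes tested. The mean was 24 ± 18.2 CPM in tumours, against 528 ± 272 CPM in epithelium, 22.0-fold lower in tumours (log2 fold change -4.46 with SE 0.54, edgeR adjusted p = 0.000157). The call held in all 19 alternative fits, with log2 fold changes of -4.82 to -4.08. The summed T and NK, B cell, endothelial and adipocyte markers given above were also lower in every tumour than in any epithelium library, and the macrophage sum was above the epithelium in 7 tumours, within its range in 1 and below it in 1. Their part in the fall of Slc7a2 was not tested. Within epithelium Slc7a2 was lowest in library 2, as was Glul, the glutamine synthetase gene, at 448 CPM there and 1550 and 3090 CPM in libraries 1 and 3.

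Slc7a1, the gene of the widely expressed arginine carrier CAT1 on chromosome 5 (148327410 to 148399904), had 15.3 CPM in the lowest tumour, 57.6 CPM at the median and 196 CPM in the highest, against 45.7, 48.2 and 47.0 CPM in epithelium 1, 2 and 3. Of the 9 tumours 5 were above the epithelium, 3 below and 1 within its range. The difference did not pass the test (87.5 ± 61.1 CPM in the tumours and 46.9 ± 1.27 CPM in epithelium, log2 fold change 0.90, SE 0.63, adjusted p = 0.323). Per kilobase of exonic sequence, which allows levels of different genes to be compared, Slc7a1 made up 34.5% to 92.3% of the Slc7a1 and Slc7a2 total in tumours and 4.47% to 14% in epithelium. That total was 10.2 ± 4.81 CPM per kb in tumours and 61.9 ± 29.7 CPM per kb in epithelium. Slc7a1 was the larger share in 7 of 9 tumours and Slc7a2 in all 3 epithelium libraries.

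Slc1a5, the gene of the glutamine exchanger ASCT2 on chromosome 7 (16781340 to 16798274), was likewise lower in each of the 9 tumours than in any epithelium library. Such a separation was shown by 14.1% of all genes tested. It had 13.6 CPM in the lowest tumour, 27.6 CPM at the median and 45 CPM in the highest, against 70.4, 68.0 and 67.1 CPM in epithelium 1, 2 and 3. The mean was 27.2 ± 11.1 CPM in tumours, against 68.5 ± 1.69 CPM in epithelium, 2.51-fold lower in tumours (log2 fold change -1.33 with SE 0.33, adjusted p = 0.0136). The call was lost when epithelium 1, 2 or 3 was left out (adjusted p of 0.0631, 0.0561 and 0.0555), with log2 fold changes of -1.35 to -1.31. T and B cell marker sums and endothelial sums were higher in the same epithelium libraries, and their part in this difference was not tested.

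Its relative Slc1a4, the gene of the alanine, serine and cysteine exchanger ASCT1 on chromosome 11 (20302180 to 20332713), did not pass the test. It had 7.76 CPM in the lowest tumour, 40.0 CPM at the median and 55.9 CPM in the highest, against 5.47, 11.9 and 9.52 CPM in epithelium. The 6 tumours numbered 1, 4, 5, 20, 21 and 27 lay above all epithelium libraries at 24.7 CPM or more, and tumours 14, 17 and 24 lay within the epithelium range at 7.76 to 11.3 CPM. The log2 fold change was 1.87 (SE 0.67, adjusted p = 0.0637), and it passed the threshold in DESeq2 (adjusted p = 0.0129), in limma-voom (0.00847) and in edgeR without tumour 14 or 24 (0.0442 and 0.0356). The ratio of Slc1a5 to Slc1a4 in a library hardly depends on scaling between libraries. Its log2 value was -0.04 ± 1.45 in tumours and 2.99 ± 0.60 in epithelium (exact two-sided permutation p = 0.0182, adjusted p = 0.0318 over 7 ratios), and 8 of 9 tumours were below the epithelium. This ratio did not pass without epithelium 1, 2 or 3 (adjusted p of 0.127, 0.0509 and 0.127). With 9 against 2 libraries the smallest possible p is larger, so this loss does not show that the ratio depends on 1 library.

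Slc6a14, on chromosome X (21714896 to 21742355), was the only member called higher. It had between 1 count, in tumour 1, and 260 counts, in tumour 27, against 0, 3 and 0 counts in epithelium 1, 2 and 3. In CPM, the lowest tumour had 0.0332, the median tumour 2.50 and the highest, tumour 4, 12.8. Tumour 1 fell within the epithelium range and the other 8 tumours were above it. Summed counts were 764 in tumours and 3 in epithelium, a ratio of 97.2 after scaling for depth (95% exact interval 33.1 to 473, counting error only). The fitted log2 fold change of 6.65 (SE 1.74, adjusted p = 0.0177) rests on the 3 epithelium counts. It was 9.68 without epithelium 2, and the call was lost without epithelium 1 or 3 (adjusted p of 0.0859 and 0.0857). The gene passed the filter on low counts only through the tumours. Its levels were modest even there, at 1.15 ± 1.25 CPM per kb, and tumour 4 is the library with the highest share of alignments that were not unique. Tumour 4 also had the smallest scaling factor (0.5572), which raises its CPM.

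The heavy chain and its light chains differed from each other. Slc3a2, on chromosome 19 (8706882 to 8723369), was among the steadiest members, with 117 CPM in the lowest tumour, 169 CPM at the median and 253 CPM in the highest, against 146, 189 and 155 CPM in epithelium. The groups overlapped, and the log2 fold change was 0.16 (SE 0.28, adjusted p = 0.709), with a 95% interval of -0.38 to 0.70. Slc7a5, on chromosome 8 (121881150 to 121907694), had 17.4 CPM in the lowest tumour, 51.4 CPM at the median and 227 CPM in the highest, against 22.1, 36.3 and 21 CPM in epithelium. It lay above every epithelium library in 8 tumours and below them in tumour 21. The log2 fold change was 1.72 (SE 0.67) and missed the threshold (87.4 ± 65.3 CPM in the tumours and 26.5 ± 8.55 CPM in epithelium, adjusted p = 0.0847). It passed in DESeq2 (adjusted p = 0.0271), in limma-voom (0.00966) and in edgeR without tumour 21 (0.0367).

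Slc7a11, on chromosome 3 (49892526 to 50443614), did not pass the test either. It had 1.38 CPM in the lowest tumour, 5.42 CPM at the median and 27.8 CPM in the highest, against 21.5, 12.9 and 24.1 CPM in epithelium. Of the 9 tumours 8 were below every epithelium library and tumour 5 was above them. The log2 fold change of -1.17 (SE 0.65) did not pass (8.64 ± 8.02 CPM in the tumours and 19.5 ± 5.87 CPM in epithelium, adjusted p = 0.209). Without tumour 5 it was -1.64 and passed (adjusted p = 0.0460), as it did in limma-voom (-1.56, adjusted p = 0.0118).

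Ratios within libraries set the light chains against the heavy chain on a scale that hardly depends on depth. The log2 ratio of Slc7a5 to Slc3a2 was -1.37 ± 0.84 in tumours and -2.66 ± 0.26 in epithelium (exact permutation p = 0.0364, adjusted p = 0.0424). That of Slc7a11 to Slc3a2 was -4.79 ± 1.18 in tumours and -3.10 ± 0.66 in epithelium (exact permutation p = 0.0273, adjusted p = 0.0382). Both passed narrowly. The first did not pass without any 1 library other than tumour 21 (adjusted p of 0.0566 to 0.127), nor the second without any 1 library other than tumour 5 or 21 (0.0509 to 0.127). That of Slc7a11 to Slc7a5 was -3.42 ± 1.85 in tumours and -0.44 ± 0.91 in epithelium (exact permutation p = 0.0182, adjusted p = 0.0318), lower than every epithelium library in 8 of 9 tumours. The exception was tumour 21, with -0.53. Slc1a5 relative to Slc7a5, which re-exports the glutamine that ASCT2 brings in, was -1.42 ± 1.23 in tumours and 1.41 ± 0.44 in epithelium, and Slc1a5 was below Slc7a5 in CPM in 8 of 9 tumours and above it in all 3 epithelium libraries. The log2 ratio of Slc7a1 to Slc7a2 was 1.80 ± 1.68 in tumours, against -3.32 ± 0.93 in epithelium, a 34.8-fold difference. No tumour overlapped the epithelium in the last 2 ratios, and both had the smallest p that 9 against 3 libraries allow (exact permutation p = 0.00909, adjusted p = 0.0318). The last 3 ratios of this paragraph did not pass without any 1 epithelium library (adjusted p of 0.0509 to 0.127). With 9 against 2 libraries the smallest possible p is larger for all these ratios. Losses without an epithelium library therefore do not show that a ratio depends on that library.

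**Figure D2:**
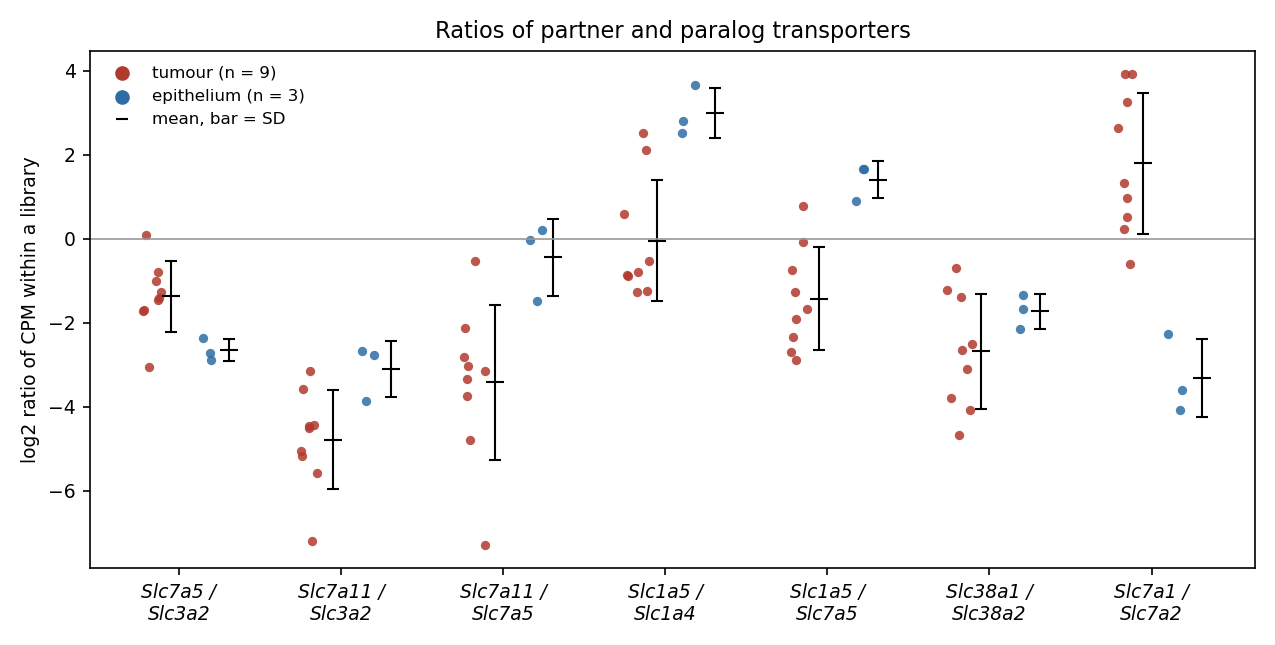
Log2 ratio of CPM of 2 transporters within each library for 7 pairs, tumours (red) left of epithelium (blue), with mean and SD in black. The Slc7a1 to Slc7a2 ratio is higher in all 9 tumours than in epithelium, the Slc1a5 to Slc7a5 ratio is lower in all 9, and the Slc38a1 to Slc38a2 ratio overlaps.

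Among the 6 light chains known to pair with CD98 (Slc7a5, Slc7a6, Slc7a7, Slc7a8, Slc7a10 and Slc7a11), levels per kb showed the shift as a share, described without a test. Slc7a5 made up 59.2% ± 16.9 of the light chain total in tumours and 32.2% ± 7.50 in epithelium. Slc7a6, a carrier of arginine and leucine, made up 12.5% ± 8.70 in tumours and 34.5% ± 0.447 in epithelium, and Slc7a11 made up 1.90% ± 1.27 in tumours and 6.52% ± 2.36 in epithelium. In tumour 21 Slc7a5 held only 19.0%, and Slc7a6 and Slc7a7 held 29.9% and 29.4%. In tumour 24 Slc7a5 held 80.4% and Slc7a11 0.13%.

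Among the members, the sodium-coupled glutamine carrier genes Slc38a1 and Slc38a2 did not differ detectably between the groups. Slc38a1 and Slc38a2 are neighbours on chromosome 15 (96571418 to 96642913 and 96687392 to 96699730), 44.5 kb apart. Slc38a2, whose product is known to be raised when amino acids run short, had 208 CPM in the lowest tumour, 311 CPM at the median and 665 CPM in the highest, against 343, 414 and 281 CPM in epithelium. The groups overlapped, with 347 ± 144 CPM in the tumours and 346 ± 66.4 CPM in epithelium (adjusted p = 0.996, interval of the log2 fold change -0.67 to 0.68). Slc38a1 had 13.2 CPM in the lowest tumour, 39.7 CPM at the median and 257 CPM in the highest, against 107, 92.3 and 112 CPM in epithelium. It lay below the epithelium in 6 tumours, above it in 2 and within its range in 1 (log2 fold change -0.40, SE 0.75, adjusted p = 0.731, interval -1.87 to 1.07). The ratio of Slc38a1 to Slc38a2 did not differ beyond its spread (exact permutation p = 0.282).

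Per kb, the order of levels in tumours was led by Slc3a2 (51.7 ± 14.7), Slc38a2 (39.3 ± 16.3) and Slc7a5 (23.6 ± 17.6 CPM per kb), with the first above the second in 7 of 9 tumours, the second above Slc7a5 in 8 of 9, and Slc7a5 above Slc1a4 in 8 of 9. Slc1a4 (8.36 ± 4.98), Slc7a1 (7.59 ± 5.30), Slc1a5 (6.53 ± 2.66) and Slc38a1 (4.56 ± 4.57) followed with overlapping ranges, each above the next in 4 to 6 of 9 tumours. Slc7a2 (2.63 ± 1.99), Slc6a14 (1.15 ± 1.25) and Slc7a11 (0.621 ± 0.576) came last, with Slc6a14 above Slc7a11 in 5 of 9. In epithelium Slc7a2 came first (57.8 ± 29.8), ahead of Slc3a2 (46.3 ± 6.30) in 2 of 3 libraries, then Slc38a2 (39.2 ± 7.52) and Slc1a5 (16.4 ± 0.404). Slc7a5 (7.14 ± 2.31) and Slc38a1 (6.03 ± 0.601) overlapped, Slc7a5 being above in 1 of 3 libraries, and Slc7a1 (4.07 ± 0.11), Slc1a4 (2.28 ± 0.826), Slc7a11 (1.40 ± 0.422) and Slc6a14 (0.0101 ± 0.0175) followed. Exonic length was the union of all annotated exons, 13.92 kb for Slc7a11 and 17.24 kb for Slc38a1 against 3.43 to 11.53 kb for the others, so levels of genes with long alternative ends are understated. All 10 members together summed to 146 ± 46.0 CPM per kb in tumours and 181 ± 18.2 CPM per kb in epithelium.

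**Figure D3:**
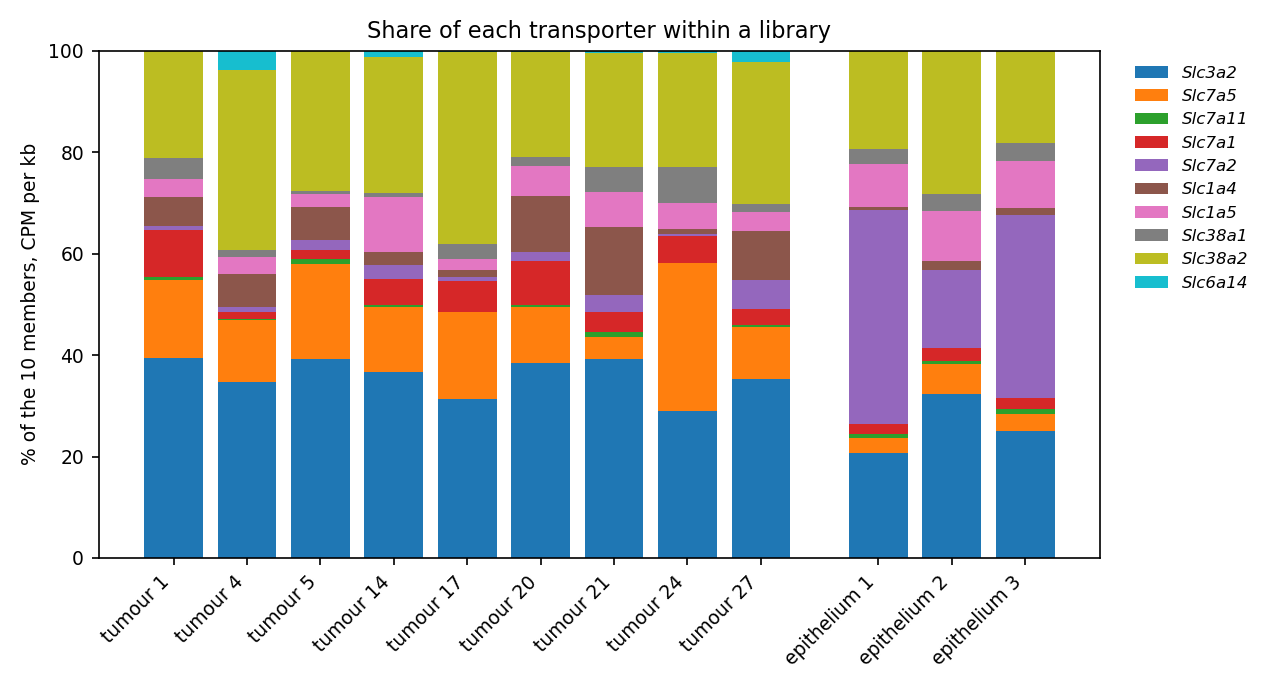
Share of each transporter in the summed CPM per kb of the 10 genes, 1 bar per library, tumours left and epithelium right. Slc7a2 (purple) makes up 15.5% to 42.1% of the bar in epithelium and 0.433% to 5.80% in tumours, while Slc7a5 (orange) reaches 29.2% in tumour 24.

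Tumours differed from each other more in some carriers than in others. The SD of log2 CPM over 9 tumours was 0.42 for Slc3a2, 0.54 for Slc38a2 and 0.59 for Slc1a5, below the median of 0.67 over the 12525 genes averaging 5 CPM or more in tumours. It was 0.99 for Slc7a2, 1.12 for Slc7a5, 1.15 for Slc1a4, 1.18 for Slc7a1, 1.22 for Slc7a11 and 1.47 for Slc38a1, the last at the 91.0th percentile of those genes. Slc6a14 had an SD of 2.04 at a mean of 3.97 CPM, under that minimum. The highest tumour exceeded the lowest 2.16-fold for Slc3a2, 13.1-fold for Slc7a5, 19.5-fold for Slc38a1 and 20.1-fold for Slc7a11.

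**Figure D4:**
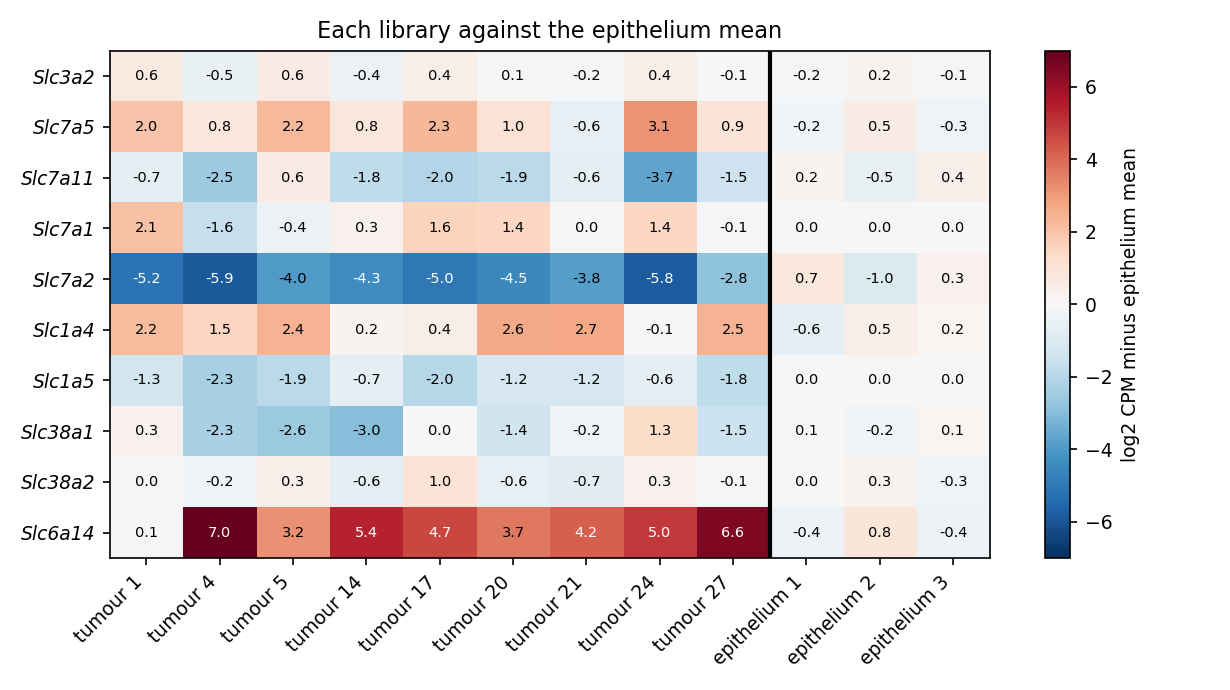
Log2 CPM of each transporter in each library minus the mean of the 3 epithelium libraries, tumours left of the black line and epithelium right of it, with red for higher and blue for lower. Slc7a2 is blue in all 9 tumours, Slc7a5 is red in all but tumour 21, and tumour 24 pairs the highest Slc7a5 and Slc38a1 with the lowest Slc7a11.

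Tumours differed in which carriers were high. Tumour 24 had the highest Slc7a5 (227 CPM), Slc38a1 (257 CPM) and Slc1a5 (45 CPM) and the lowest Slc7a11 (1.38 CPM) and Slc1a4 (7.76 CPM). Tumour 5 had the highest Slc7a11 (27.8 CPM) together with 122 CPM of Slc7a5 and 246 CPM of Slc3a2, but low Slc38a1 (16.8 CPM). Tumour 21 had the lowest Slc7a5 (17.4 CPM) and Slc38a2 (208 CPM) and the highest Slc1a4 (55.9 CPM). Tumour 1 had the highest Slc7a1 (196 CPM) and Slc3a2 (253 CPM) and almost no Slc6a14, and tumour 17 the highest Slc38a2 (665 CPM). Tumour 27, with 66.4 CPM, had the highest Slc7a2 and also the highest summed basal markers (4290 CPM), summed endothelial markers (726 CPM) and Glul (396 CPM) of the tumours. Tumour 4 had the lowest Slc3a2, Slc7a1, Slc7a2 and Slc1a5 and the highest Slc6a14. Its scaling factor was 0.5572, against 0.8963 to 1.188 in the other libraries, and its rank as highest in Slc6a14 depends on that factor. Raw counts of Slc6a14 were 140 of 19695318 in tumour 4 and 260 of 26528767 in tumour 27. The sum of macrophage markers was highest in tumour 4, which also depends on its scaling factor, and that of fibroblast, T cell and B cell markers was highest in tumour 21. Their part in these values was not tested.

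Partners were followed across the 9 tumours in 8 relations. Slc7a5 and its heavy chain Slc3a2 had Pearson's r = 0.76 (exact permutation p = 0.0179) and Spearman's rho = 0.78 (exact permutation p = 0.0172), which missed the threshold when adjusted over 8 relations (0.0716 and 0.0689). Without tumours 21 and 24, the farthest from the median of Slc7a5, r was 0.92 (n = 7, exact permutation p = 0.00536). In the 4 tumours with over 100 CPM of Slc7a5, numbers 1, 5, 17 and 24, Slc3a2 was 214 to 253 CPM, and in the other 5 it was 117 to 169 CPM. Slc7a11 showed no such relation to Slc3a2 (r = 0.28, rho = 0.28, exact permutation p = 0.472 and 0.463; r = 0.42 without tumours 5 and 24).

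Slc7a5 was also set against Asns, the asparagine synthetase gene and a target of ATF4. Asns stood apart in tumours 5 and 24, at 550 and 589 CPM, with 30.6 to 92.6 CPM in the other 7 tumours and 15.3 to 15.9 CPM in epithelium. Over all 9 tumours, which mix these levels, r was 0.78 (exact permutation p = 0.00718, adjusted p = 0.0574) and rho 0.85 (exact permutation p = 0.00607, adjusted p = 0.0486). Within the other 7 tumours r was 0.66 (exact permutation p = 0.115) and rho 0.71 (exact permutation p = 0.0881), of the same sign and without passing the test. Without tumours 21 and 24, r was 0.65 (exact permutation p = 0.0609). Slc3a2 and Asns had r = 0.62 and rho = 0.57 (exact permutation p = 0.0759 and 0.121), r = 0.69 without tumours 1 and 5, and r = 0.49 (exact permutation p = 0.267) without tumours 5 and 24. The remaining 4 relations had small r. They were -0.25 for Slc7a5 with Slc7a11 (rho -0.27, exact permutation p = 0.521 and 0.493), 0.07 for Slc1a5 with Slc7a5 (rho 0.10, exact p = 0.863 and 0.810), 0.35 for Slc38a1 with Slc38a2 (rho 0.33, exact p = 0.357 and 0.385) and -0.19 for Slc7a11 with the NRF2 target Nqo1 (rho -0.23, exact p = 0.634 and 0.552). Adjusted p was at least 0.695 for these r, and without the 2 farthest tumours they were 0.61, -0.57, 0.26 and -0.36.

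**Figure D5:**
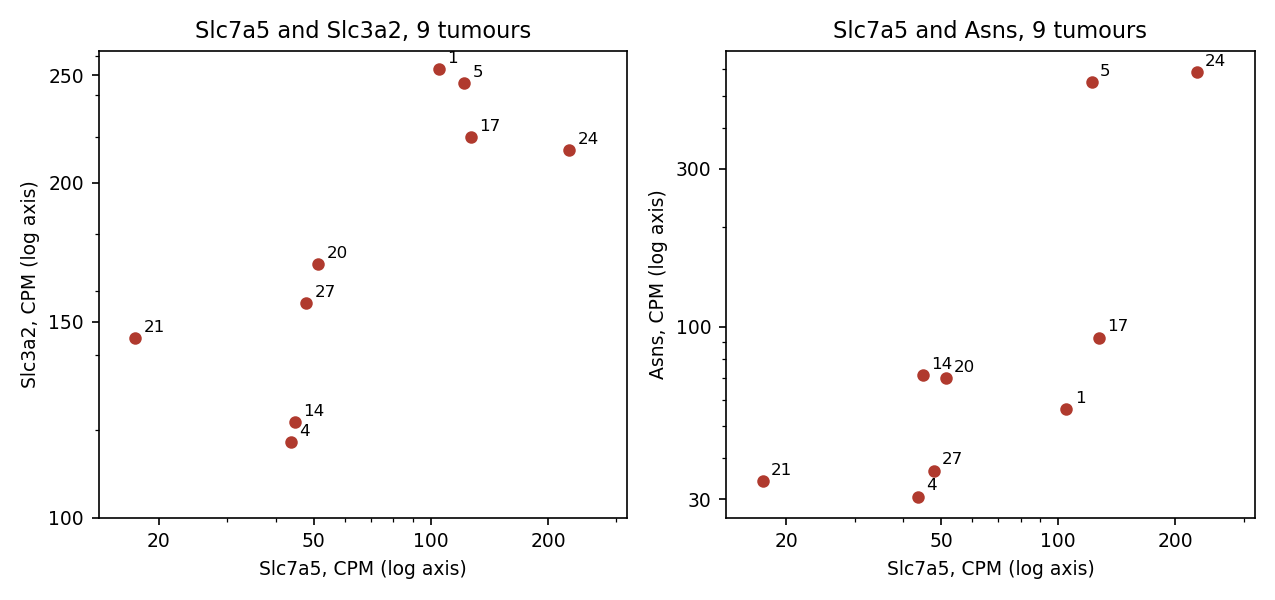
CPM of Slc7a5 on the x axis against Slc3a2 (left) and Asns (right) on log axes, 1 numbered point per tumour. Tumours 1, 5, 17 and 24 are high in both Slc7a5 and Slc3a2, and tumours 5 and 24 stand apart in Asns.

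Genes beside a member on its chromosome were compared tumour by tumour, as log2 CPM minus the median of the other 8 tumours, over the 5 nearest genes with at least 5 CPM on either side. For Slc7a5 the median of its 10 neighbours, spanning 0.88 megabases, had the same sign as Slc7a5 in all 9 tumours. The neighbours' median was 0.88, 0.57, 0.47 and 0.62 in tumours 1, 5, 17 and 24, where Slc7a5 itself stood at 1.08, 1.30, 1.35 and 2.19, and -0.20 to -0.57 in the other 5. For Slc1a4 the 10 neighbours stood at -0.56, -0.62 and -0.79 in tumours 14, 17 and 24, the 3 tumours with low Slc1a4, with 0, 1 and 0 of 10 above 0, and signs matched in 7 of 9 tumours. Signs also matched in 7 of 9 tumours for Slc3a2 and Slc38a2, in 4 or 5 for Slc7a1, Slc7a2, Slc1a5, Slc38a1 and Slc6a14, and in 1 for Slc7a11. These counts carry no test, and the neighbours of Slc38a1 and Slc38a2 are largely shared.

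For the 6 members with an SD of at least 1, the protein-coding genes with the most similar course over the 9 tumours were found by the root mean square (RMS) difference of centred log2 CPM among 11726 candidates (11727 for Slc6a14). They were Cdc45, a replication gene (0.42), and the signalling inhibitor gene Spry4 (0.45) for Slc7a5, with Cdc45 lowest in tumour 21 (8.65 CPM) and highest in tumour 24 (77.4 CPM). For Slc7a1 they were Aldh18a1, of proline synthesis (0.43), and Rbm19 (0.47). For Slc7a11 they were Stx11, a syntaxin gene of immune cells (0.41), and Ttc39b (0.42), and for Slc1a4 Sspn (0.50) and Dgkh (0.52). For Slc6a14 Enpp3 (0.49) and Bdh1 (0.74) were closest, and for Slc38a1 Nr4a2 (0.75) and Dst (0.78), less close relative to a member RMS of 1.38 around its own mean.

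Other genes of amino acid transport and use give the setting. Of 45 other amino acid transporter genes, 35 were tested, and 2 were called higher and 8 lower in tumours (median log2 fold change -0.34, against 0.17 for all genes). The called share was 28.6%, against 20.3% of all genes tested (8.89% higher and 11.4% lower). No set test was run on this or the lists below. The rises were those of Slc38a3, a glutamine carrier (30.8 ± 36.3 CPM in the tumours and 0.934 ± 1.06 CPM in epithelium, log2 fold change 5.04, adjusted p = 0.0381), and of the cationic carrier gene Slc7a3 (2.17 ± 1.46 CPM in the tumours and 0.379 ± 0.142 CPM in epithelium, adjusted p = 0.0376). Slc38a3 lay above every epithelium library in 7 of 9 tumours, and Slc7a3 in 8 of 9. Their lowest epithelium values were 0.242 and 0.236 CPM, and both passed the filter on low counts only through the tumours. The falls with the smallest adjusted p were those of Slc38a11 (0.0582 ± 0.0842 CPM in the tumours and 2.76 ± 0.662 CPM in epithelium) and Slc6a18 (0.396 ± 0.167 CPM in the tumours and 1.75 ± 0.321 CPM in epithelium), both at low levels. Slc38a11 had at most 0.218 CPM in tumours, and it passed the filter on low counts only through the epithelium. Both rises were lost without any 1 epithelium library, and the 8 falls became 4. Calls over all genes also fell then, from 1908 to 506 to 548 higher and from 2438 to 1496 to 1542 lower.

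Of 23 genes of ATF4 and its targets, 8 were called higher and 1 lower, with a median log2 fold change of 1.01. The called share was 39.1%, against 20.3% of all genes tested. Pycr1, of proline synthesis, had 12.6 ± 5.60 CPM in the tumours and 1.76 ± 0.180 CPM in epithelium (log2 fold change 2.84, adjusted p = 0.00408), and Trib3, a pseudokinase gene, 25.2 ± 15.6 CPM in the tumours and 2.94 ± 0.641 CPM in epithelium (adjusted p = 0.0115). Atf3, a stress and immediate early gene, fell (18.8 ± 15.8 CPM in the tumours and 635 ± 121 CPM in epithelium, adjusted p = 9.24e-05). Atf4 RNA itself had 193 ± 58.3 CPM in the tumours and 208 ± 26.2 CPM in epithelium (adjusted p = 0.799), and Asns missed the threshold (170 ± 227 CPM in the tumours and 15.6 ± 0.306 CPM in epithelium, adjusted p = 0.0527). Without any 1 epithelium library, 1 of the 23 genes was called higher, while calls over all genes fell from 1908 to 506 to 548 higher.

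Of 19 genes of NRF2 and glutathione, 5 were called higher and 1 lower (median 0.94). The called share was 31.6%, against 20.3% of all genes tested. Gpx2, a glutathione peroxidase gene (102 ± 107 CPM in the tumours and 0.472 ± 0.286 CPM in epithelium), and Gss, glutathione synthetase (28.2 ± 5.09 CPM in the tumours and 14 ± 1.81 CPM in epithelium), rose with adjusted p of 0.00726 and 0.0133. Gpx2 had 0.27 to 0.799 CPM in epithelium and passed the filter on low counts only through the tumours. Its lowest tumour, at 0.465 CPM, lay within that range, and the other 8 tumours were above it. Gclc, which encodes the catalytic subunit of the enzyme that joins glutamate to cysteine, fell (51.5 ± 26.9 CPM in the tumours and 186 ± 77.5 CPM in epithelium, adjusted p = 0.00582). Without any 1 epithelium library 1 of the 19 genes was called higher, and without epithelium 2 none was called lower. Of 20 enzymes of glutamine, arginine and branched-chain amino acids, 1 was called higher and 2 lower (median 0.61). The called share of this list was below the 20.3% of all genes tested. Glul fell (167 ± 100 CPM in the tumours and 1700 ± 1330 CPM in epithelium, adjusted p = 0.000573). Ddah1, whose product breaks down methylated arginine, rose (36.9 ± 41.3 CPM in the tumours and 3.29 ± 1.17 CPM in epithelium, adjusted p = 0.0179), and this call was lost and the 2 falls became 1 without any 1 epithelium library.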

How the data were processed

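The submitters deposited raw counts per gene, 1 file per library. Per the labels, total RNA was made into TruSeq stranded libraries, and per the submitters' processing notes the tools were FastQC 0.11.8, TopHat2 2.1.1 and HTSeq 0.11.0 with build GRCm38. Which annotation release and strand setting were used, and whether reads or pairs were counted, is not given in these sources. Without a known strand setting, reads of overlapping antisense genes cannot be told apart. The genes overlapping Slc7a5, Slc7a11, Slc7a2 and Slc6a14 had at most 0.878 CPM.

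Tests of the counts ran in R 4.3.3, with edgeR 4.0.16 as the main tool (filterByExpr, trimmed mean of M values, quasi-likelihood F test, robust fit, design of group only), with limma 3.58.1 and DESeq2 1.42.0 as alternatives; all other steps ran in Python 3.11.15. SE was obtained by dividing the size of the log2 fold change by the root of F, and 95% intervals from it by the normal quantile. Positions and exonic lengths came from GENCODE M21, in which 54106 of 54658 symbols matched. Summary rows for alignments outside genes, ambiguous or not unique stayed out of library sizes. Ratios and relations used log2 CPM with a prior count of 2, with exact permutation over 220 splits or 362880 pairings, two-sided. No library copied another of its group, the lowest chi-square over its degrees of freedom being 26.65. On simulated data of 20787 genes in the same groups, edgeR found 0% of the genes given a 2-fold change, 21.3% of those given 4-fold, 51% of those given 8-fold and 77.1% of those given 16-fold, and made 0 false calls. Only 47 to 49 tested genes had each fold change, and each gene had 1 dispersion for both groups. In the data 20.3% of genes were called and tumours differed more from each other than epithelium libraries did. These rates therefore do not carry over to the data.

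The members and lists were chosen with earlier results of these data known. Named genes are the members, 2 called genes per list and direction with the smallest adjusted p, the most abundant marker per cell type, Asns, Nqo1 and the 2 nearest profiles of members with an SD of at least 1. A gene that this rule names is not reported here. Slc7a6, Slc7a7, Slc7a8, Slc7a10, Atf4 and the within-set shares were added after their values were seen. Alternatives were 2 other scalings, scaling that omits the 50 genes of highest abundance, no filter or at least 10 counts in 9 libraries, DESeq2, limma-voom with group weights, and leaving out each library. Intervals and limits from counts include counting error alone, because reads lacking molecular identifiers do not stand for independent molecules.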

Additional observations from a re-analysis of the deposited data

Results flagged for a closer look

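A gap test on unlogged CPM over the 9 tumours (Dixon's ratio against the critical value 0.493) marked a single high tumour in 4 of the 10 genes. Chance passes this value in about 1 of 20 groups only where values are normally distributed. That was not checked for CPM, and log2 CPM was not tested, so the marks describe gaps on the CPM scale only. These were Slc7a11 in tumour 5 (27.8 CPM), Slc7a2 in tumour 27 (66.4 CPM), Slc38a1 in tumour 24 (257 CPM) and Slc38a2 in tumour 17 (665 CPM). The ratios were 0.598, 0.572, 0.528 and 0.511. Slc7a5 in tumour 24 reached 0.478.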

How the results depend on the processing

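Slc7a2 kept its call and its direction in all 19 alternatives, and Slc3a2, Slc7a1 and Slc38a1 kept direction and stayed uncalled. Slc38a2, at 0 change, turned to -0.11 with upper quartile scaling, -0.01 without the 50 most abundant genes in scaling, 0.00 with no filter, -0.06 with at least 10 counts in 9 libraries, -0.07 in limma-voom, -0.04, -0.17 and -0.03 without tumours 5, 17 and 24, and -0.01 and -0.13 without epithelium 1 and 3, with a range of -0.17 to 0.15 on leaving out a library. Members called higher numbered 0 with at least 10 counts in 9 libraries, where Slc6a14 was not tested, 3 in DESeq2, 3 in limma-voom and 0 to 2 on leaving out a library, and members called lower 1 to 3. Over all genes, DESeq2 called 3799 higher, limma-voom 4994 higher and 5622 lower, and leaving out a library gave 506 to 2486 higher and 1496 to 2753 lower, the low ends without an epithelium library. For other transporters no filter left 0 higher and the stricter filter 5 lower. Limma-voom called 14 lower there, 14 higher and 2 lower for ATF4, 9 higher for NRF2, and 5 higher and 4 lower for the enzymes. DESeq2 called 2 lower for ATF4 and 2 higher for the enzymes. Leaving out a library gave 0 to 2 higher and 4 to 9 lower for transporters, 1 to 10 and 1 to 2 for ATF4, 1 to 6 and 0 to 1 for NRF2, and 0 to 1 and 1 to 3 for the enzymes.

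Ratio differences on leaving out a library ran from 1.11 to 1.5 for Slc7a5 to Slc3a2, -2.07 to -1.39 for Slc7a11 to Slc3a2, -3.50 to -2.50 for Slc7a11 to Slc7a5, -3.36 to -2.70 for Slc1a5 to Slc1a4, -3.12 to -2.66 for Slc1a5 to Slc7a5 and 4.75 to 5.64 for Slc7a1 to Slc7a2. All 6 lost their adjusted p under 0.05 without an epithelium library (0.0509 to 0.127), where 9 against 2 libraries bound the p, and the first 2 also without most single tumours. Relations on leaving out a tumour ran from 0.00 to 0.60 for Slc7a11 with Slc3a2, -0.60 to 0.21 for Slc7a5 with Slc7a11, -0.35 to 0.23 for Slc1a5 with Slc7a5 (0.00 with upper quartile scaling), 0.65 to 0.84 for Slc7a5 with Asns and -0.49 to 0.03 for Slc7a11 with Nqo1. The sign turned for Slc7a11 with Slc3a2 (0.00) and with Nqo1 (0.03) without tumour 5, for Slc7a5 with Slc7a11 (0.21) without tumour 24, and for Slc1a5 with Slc7a5 without tumour 4 (-0.07) or 24 (-0.35), and the cause was not tested. The relations with Asns without tumours 5 and 24 were added after seeing the data. No paired analysis was made, because the labels name no pairs and the tumours and epithelium differ in genotype.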
